A study of Mus musculus with 2 samples.

Results

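The genes described here are Nfe2l2, which encodes the transcription factor NRF2, its inhibitor Keap1, the NRF2 target genes Nqo1, Gclc, Gclm, Txnrd1, Srxn1 and Slc7a11, and the metallothionein genes Mt1 and Mt2. They were chosen by gene name, and all 10 were on the arrays, with 19 probes in 28 spots per array, among 27962 gene names. Liver mRNA was measured in male apoE-KO mice of the C57BL/6 strain, which lack apolipoprotein E in both diet groups. Feeding lasted 1 week and began when the animals were 10 weeks old. The high-Chol diet was normal chow with Chol added to 1.25%, and the other group had normal chow alone. For each diet 3 one-colour Agilent arrays were made. All 3 normal chow arrays and high-Chol array 1 lay on 1 slide, called slide 1 here, and high-Chol arrays 2 and 3 lay on another, called slide 2. Array numbers only name the arrays within a diet. The methods speak of independent experiments, and nothing states how many animals stand behind an array, so p-values measure the spread between these arrays. There was no wild-type group, so every comparison is between diets within the apoE-KO genotype.

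NRF2 is a transcription factor that KEAP1 holds in the cytoplasm and marks for degradation. Oxidants and electrophiles modify cysteines of KEAP1, NRF2 then reaches the nucleus, pairs with small MAF proteins and binds antioxidant response elements of genes for glutathione synthesis, thioredoxin recycling and detoxification, a system that the liver uses heavily. Metallothioneins are small cysteine-rich proteins that bind zinc and copper, and the liver induces them through metal response elements (bound by MTF1), glucocorticoids and inflammatory signals. NRF2 is controlled largely at the protein level, which arrays of mRNA do not measure.

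The high-Chol diet was not followed by a called change in any of these genes. Of the 9 that could be tested (Mt2 with 1 high-Chol array only), 0 were called higher and 0 lower (limma, Benjamini-Hochberg adjusted p under 0.05), where 2.69% of the 16728 tested genes were called higher and 0.227% lower. Before adjustment, p was under 0.05 for 2 genes that were higher (Nfe2l2 and Srxn1) and for 0 that were lower, where 12.3% of all tested genes were higher and 8.83% lower. The first of these counts was 0 with a normexp background, median scaling or slide as a block, 4 with quantile normalization, and 0 without normal chow array 2 or high-Chol array 2. Nfe2l2 and 5 NRF2 target genes had higher mean levels on the high-Chol diet, by 0.31 to 0.55 on the log2 scale, and the means of Keap1, Mt1 and Mt2 were lower. A higher mean was thus seen for 6 of the 9, where 47.8% of all tested genes had one and 52.2% a lower one. The median difference of the 9 genes was 0.32, and that of all tested genes was -0.02. With scaling to the array median these became 0.087 and -0.26, and the differences were 0.29 for Nfe2l2, 0.17 for Nqo1, 0.18 for Gclc, 0.078 for Gclm, 0.087 for Txnrd1 and 0.31 for Srxn1. In whole liver, a smaller number of cells of a type and less RNA per cell cannot be told apart.

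Sequences of 3 kinds are shown, all 5′ to 3′. The first is the Mt1 probe, which was printed in 10 spots on every array and gives the most closely repeated measurement among these genes. It lies at chr8:92769155-92769214 on the plus strand (mm7, the build of the array annotation). Capitals mark the triplets TGC and TGT, which code for cysteine, in the frame that starts at base 3. That frame held 6 of them in 19 whole triplets and no stop.
Mt1 probe: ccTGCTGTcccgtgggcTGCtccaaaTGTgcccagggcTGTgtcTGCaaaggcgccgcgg

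The second kind is the antioxidant response element core, searched as TGACNNNGC on both strands in the 250 bases before the gene start (RefSeq, GRCm38.p6). The windows of 9 members were in the table, with 11 starts in all, and Gclc was not among them. A core was found in 4 of these 11 windows, where 10.2% of all 32851 promoter windows held at least 1. They are shown on the strand of the match, with 10 flanking bases on each side and the core in capitals.
Nfe2l2, chr2:75704885-75704913: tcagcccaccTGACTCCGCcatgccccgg
Gclm, chr3:122245413-122245441: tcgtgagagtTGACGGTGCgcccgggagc
Txnrd1, its start 2, chr10:82859104-82859132: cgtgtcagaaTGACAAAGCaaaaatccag
Mt2, chr8:94172529-94172557: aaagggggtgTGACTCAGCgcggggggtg
The core base farthest from the start lay 240 bases before it in Nfe2l2, 134 in Gclm, 92 in Txnrd1 and 79 in Mt2. The first bases of the Mt2 core are also a match to the AP-1 site TGACTCA, which 4.46% of all windows held, and the Gclm core overlaps a metal response element core.

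The third kind is the metallothionein promoter. Capitals mark the metal response element core, searched on both strands as TGCACNC or TGCGCNC, which 21.4% of all windows held at least 1 time and 1.26% at least 3 times. Both genes lie on the plus strand of chromosome 8, and the windows end at the base before the gene start.
Mt2, chr8:94172368-94172617: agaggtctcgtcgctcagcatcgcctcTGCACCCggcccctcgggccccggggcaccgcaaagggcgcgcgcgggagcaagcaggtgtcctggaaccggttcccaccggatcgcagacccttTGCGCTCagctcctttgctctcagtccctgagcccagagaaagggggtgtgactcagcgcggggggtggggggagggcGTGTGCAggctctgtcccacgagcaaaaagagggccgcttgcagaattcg
Mt1, chr8:94178839-94179088: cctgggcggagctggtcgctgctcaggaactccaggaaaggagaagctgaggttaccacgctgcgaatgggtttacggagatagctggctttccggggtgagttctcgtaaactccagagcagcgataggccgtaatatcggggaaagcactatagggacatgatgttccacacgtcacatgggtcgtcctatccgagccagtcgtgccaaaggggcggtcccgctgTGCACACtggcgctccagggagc
The Mt2 window held 3 cores and the Mt1 window 1. With the 50 bases after the RefSeq start included, Mt2 had 1 more and Mt1 had 2 more, which made 4 and 3. The counts therefore depend on where the start is placed, and they do not rank the 2 promoters. Cores were also present in the windows of Gclm and Srxn1. A match is a run of letters and not a measured binding site, and no binding was measured in these samples.

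All levels below are log2 of the background-subtracted signal minus the 75th percentile of the same array, so that a value of 0 is the 75th percentile spot of the array. They compare arrays for 1 probe and not probes with each other. Differences are high-Chol diet minus normal chow on this scale, with standard errors (SE) and 95% confidence intervals (CI) from limma.

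Nfe2l2 had 4 probes, and the brightest (chr2:75519430-75519489 of mm7, minus strand) gave 3.06, 3.05 and 3.16 on normal chow arrays 1, 2 and 3. The high-Chol arrays gave 3.34, 3.89 and 3.61. All 3 high-Chol arrays were above all 3 normal chow arrays, and the lowest of them was high-Chol array 1, the one that shared a slide with the normal chow arrays. The difference was 0.52 (SE 0.18, CI 0.09 to 0.95, n = 3 arrays per diet), or 1.44-fold, with an adjusted p of 0.182 in limma. A probe of the same transcript gave 2.53, 2.54 and 2.55 with normal chow, against 2.87, 3.32 and 3.01 with the high-Chol diet, which differed by 0.52, again without overlap. The other probes, designed on other cDNA records, differed by 0.44 and 0.27, and on both the diets overlapped. With slide as a block, an estimate that compares high-Chol array 1 alone with the normal chow arrays, the Nfe2l2 difference was 0.25 (CI -0.24 to 0.73). Without high-Chol array 1 it was 0.66 with an adjusted p of 0.0367 in limma, but diet and slide then cannot be told apart.

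Keap1, whose protein carries NRF2 to the CUL3 ubiquitin ligase, had 1 probe. It gave 3.12, 3.09 and 3.35 with normal chow, against 3.41, 2.98 and 3.04 with the high-Chol diet. High-Chol array 1 was the highest of the 6 arrays and the other high-Chol arrays were the lowest, so the diets overlapped fully. The difference was -0.04 (SE 0.18, CI -0.46 to 0.37, adjusted p = 0.90 in limma), and its sign changed with the scaling, to 0.22 with a normexp background and 0.065 with quantile normalization.

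**Figure D1:**
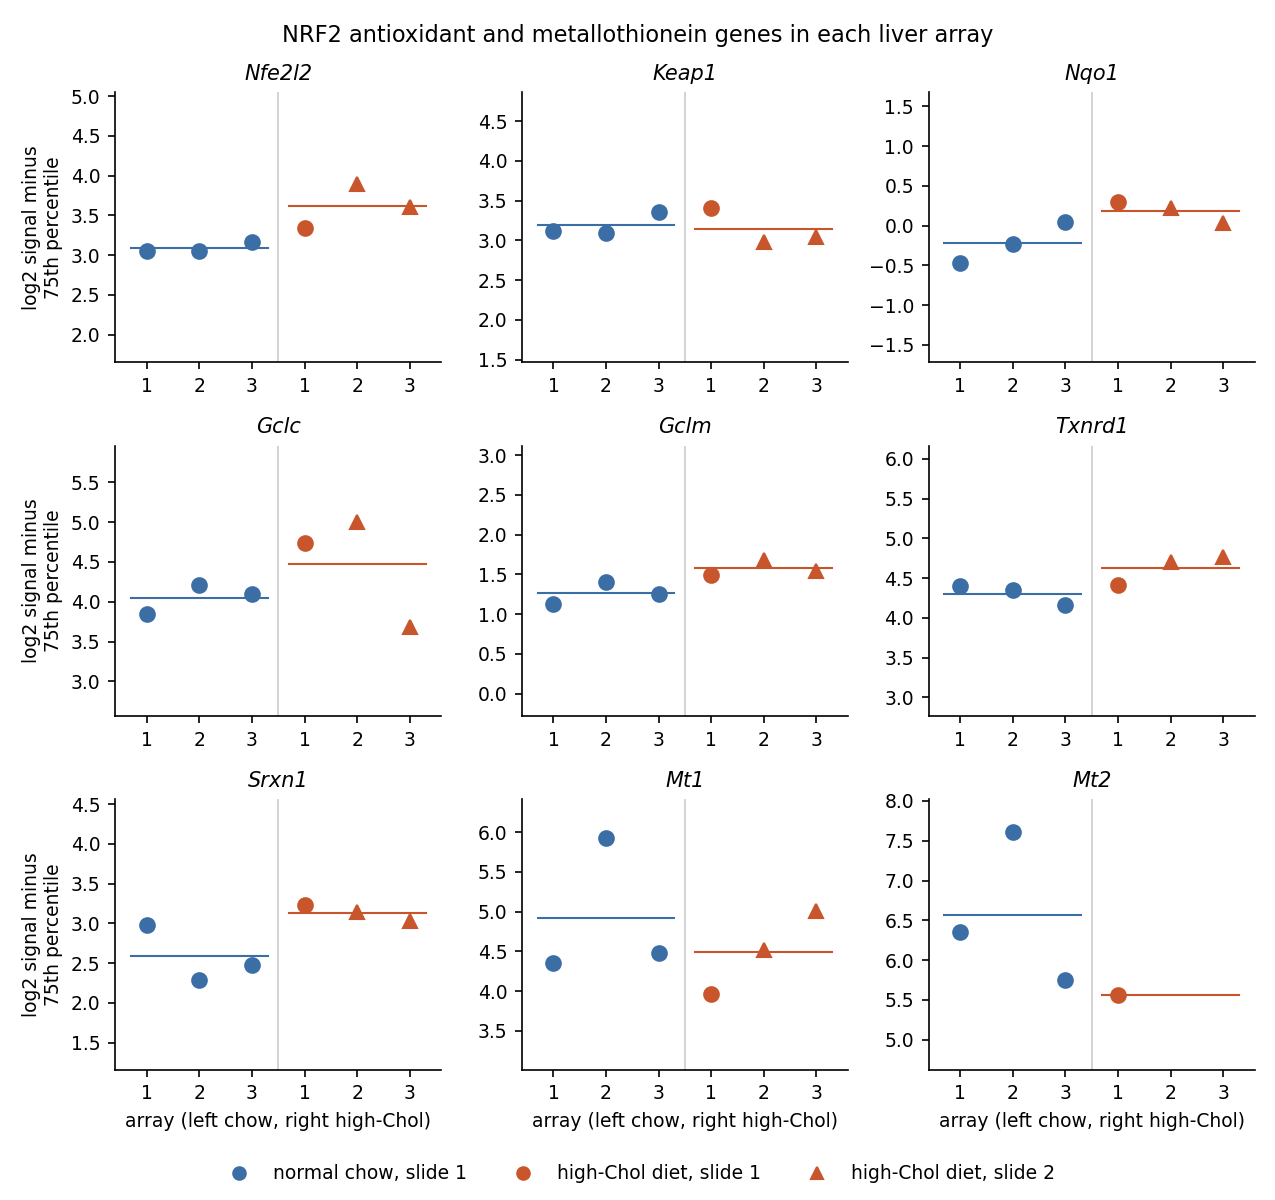
Each panel plots 1 gene, with the log2 signal minus the 75th percentile of the array on the y axis (3.4 log2 units in every panel) and the 6 arrays on the x axis, circles for slide 1 and triangles for slide 2, and a line at the mean of each diet. Nfe2l2, Gclm, Txnrd1 and Srxn1 showed no overlap between the diets, whereas Gclc was split within the high-Chol diet and Mt1 and Mt2 were highest on normal chow array 2. The Mt2 line on the high-Chol side is the value of array 1 alone.

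Glutathione synthesis begins with glutamate-cysteine ligase, of which Gclc encodes the catalytic and Gclm the modifier subunit. Gclc gave 3.85, 4.21 and 4.10 with normal chow, against 4.74, 4.999 and 3.68 with the high-Chol diet. High-Chol arrays 1 and 2 were the highest of the 6 and high-Chol array 3 the lowest, although arrays 2 and 3 shared a slide. The difference was 0.42 (SE 0.34, CI -0.38 to 1.22, adjusted p = 0.479 in limma), and the SD among the high-Chol arrays was 0.70 against 0.18 on normal chow. Without high-Chol array 3 the difference was 0.81, and without high-Chol array 2 it was 0.16. Gclm gave 1.12, 1.40 and 1.25 with normal chow, against 1.49, 1.69 and 1.54 with the high-Chol diet. Its high-Chol arrays were all above the normal chow arrays, by a narrow margin between high-Chol array 1 and normal chow array 2. The difference was 0.31 (SE 0.15, CI -0.04 to 0.67, adjusted p = 0.275 in limma).

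Slc7a11 encodes the cystine transporter that supplies cysteine for glutathione. Its 4 probes were not well above background on any of the 6 arrays, so it was not tested and no fold is given.

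Nqo1 encodes a quinone reductase that is widely used as a readout of NRF2. Its probe gave -0.47, -0.23 and 0.04 with normal chow, against 0.29, 0.22 and 0.03 with the high-Chol diet. The diets met at normal chow array 3 and high-Chol array 3, which were nearly equal. The difference was 0.40 (SE 0.18, CI -0.03 to 0.83, adjusted p = 0.253 in limma).

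Txnrd1 and Srxn1 act on oxidized thiols, as the cytosolic thioredoxin reductase and as sulfiredoxin, which repairs overoxidized peroxiredoxins. Txnrd1 gave 4.40, 4.35 and 4.16 with normal chow, against 4.41, 4.70 and 4.77 with the high-Chol diet. The diets did not overlap, but high-Chol array 1 was almost level with normal chow array 1. The difference was 0.32 (SE 0.16, CI -0.07 to 0.71, adjusted p = 0.297 in limma), and with slide as a block it was 0.11 (CI -0.36 to 0.58).

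The brightest of the 3 Srxn1 probes gave 2.98, 2.29 and 2.48 with normal chow, against 3.23, 3.14 and 3.03 with the high-Chol diet. The high-Chol arrays lay close together above the normal chow arrays, of which array 1 came nearest. The difference of 0.55 (SE 0.21, CI 0.06 to 1.04, adjusted p = 0.205 in limma), or 1.46-fold, was the largest of the 6 positive differences on this scale. The other Srxn1 probes differed by 0.89, without overlap, and by 0.47, with overlap. Unlike for Nfe2l2 and Txnrd1, the value with slide as a block was not smaller (0.65, CI -0.07 to 1.37), and whether these genes differ in this respect was not tested.

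On this scale 0 of the 9 genes were more than 1.5-fold higher, where 15.4% of all tested genes were, and 1 (Mt2) was more than 1.5-fold lower, where 5.84% were. The first count became 4 with a normexp background (Nfe2l2, Gclc, Txnrd1 and Srxn1), 3 with quantile normalization (Nfe2l2, Gclc and Srxn1), 2 with slide as a block (Gclc and Srxn1) and 1 when probes of a gene were averaged (Srxn1), and with each array left out it ran from 0 to 2 (Gclc and Srxn1, without high-Chol array 3). The count of lower genes became 2 (Mt1 and Mt2) with median scaling, slide as a block or the deposited table and 0 with a normexp background. With single arrays left out it was 2 without normal chow array 1 or 3 or high-Chol array 3, and 0 without normal chow array 2 or high-Chol array 1, where Mt2 had no value. The diets did not overlap, with the high-Chol diet higher, for 4 of the 8 genes measured on each of the 6 arrays (Nfe2l2, Gclm, Txnrd1 and Srxn1), where 11.9% of all genes with 6 values were higher in that way. This count depended on the scaling. It was 4 with quantile normalization, 2 with a normexp background (Nfe2l2 and Nqo1, against 3.15% of all genes) and 1 with scaling to the array median (Nfe2l2, against 8.07%). Nfe2l2 was thus without overlap under each of these 4 scalings.

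**Figure D2:**
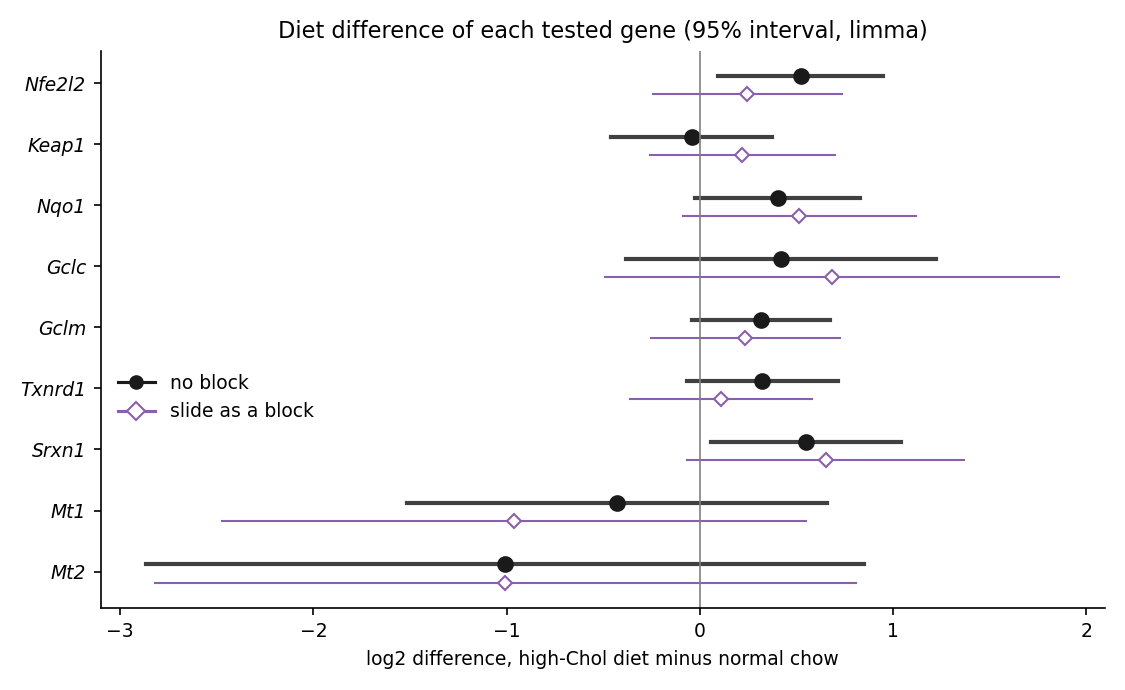
The x axis is the log2 difference (high-Chol diet minus normal chow) and each row is 1 tested gene, with filled circles for the comparison without a block (6 arrays, or for Mt2 3 normal chow arrays and 1 high-Chol array), open diamonds for the value with slide as a block, and bars for the 95% CI from limma. Only the intervals without a block of Nfe2l2 and Srxn1 leave out 0, at unadjusted limits, and the Mt1 and Mt2 intervals are the widest.

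Mt1 and Mt2 spread widely among the arrays of a diet. The 10-spot Mt1 probe gave 4.36, 5.93 and 4.49 with normal chow, against 3.96, 4.52 and 5.004 with the high-Chol diet. The highest of the 6 was normal chow array 2, the lowest was high-Chol array 1, and the diets overlapped. The SD among the 10 spots of this probe within an array was 0.03 to 0.08, whereas the SD between normal chow arrays was 0.87. The difference was -0.43 (SE 0.46, CI -1.52 to 0.66, adjusted p = 0.596 in limma), and without normal chow array 2 it turned to 0.074. It was -0.96 with slide as a block and -0.66 with median scaling. The other Mt1 probe (chr8:92768988-92769047 of mm7) gave 0.37, 2.28 and 2.69 with normal chow, against 0.81, 2.80 and 1.40 with the high-Chol diet. Its diets overlapped as well (difference -0.11), and it placed normal chow array 3 and high-Chol array 2 highest, which the 10-spot probe did not.

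The Mt2 probe (chr8:92762515-92762574 of mm7) gave 6.35, 7.61 and 5.75 with normal chow, against 5.56 with high-Chol array 1. Its spots on high-Chol arrays 2 and 3 were marked as non-uniform by the scanner software and left out, so the high-Chol side rests on 1 array. Its SE, CI and p therefore take their spread from the normal chow arrays and the variance prior of limma, and assume that the lone high-Chol array varies likewise. Normal chow array 2 was the highest, as for the 10-spot Mt1 probe, and high-Chol array 1 the lowest. The difference was -1.01 (SE 0.73, CI -2.87 to 0.85, adjusted p = 0.446 in limma). It was -0.49 without normal chow array 2, -1.42 without normal chow array 3 and -0.38 with a normexp background. With the marked spots kept, high-Chol arrays 2 and 3 read 5.58 and 5.96, the difference was -0.87 (SE 0.45, adjusted p = 0.301), and normal chow array 3 lay within the high-Chol range.

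**Figure D3:**
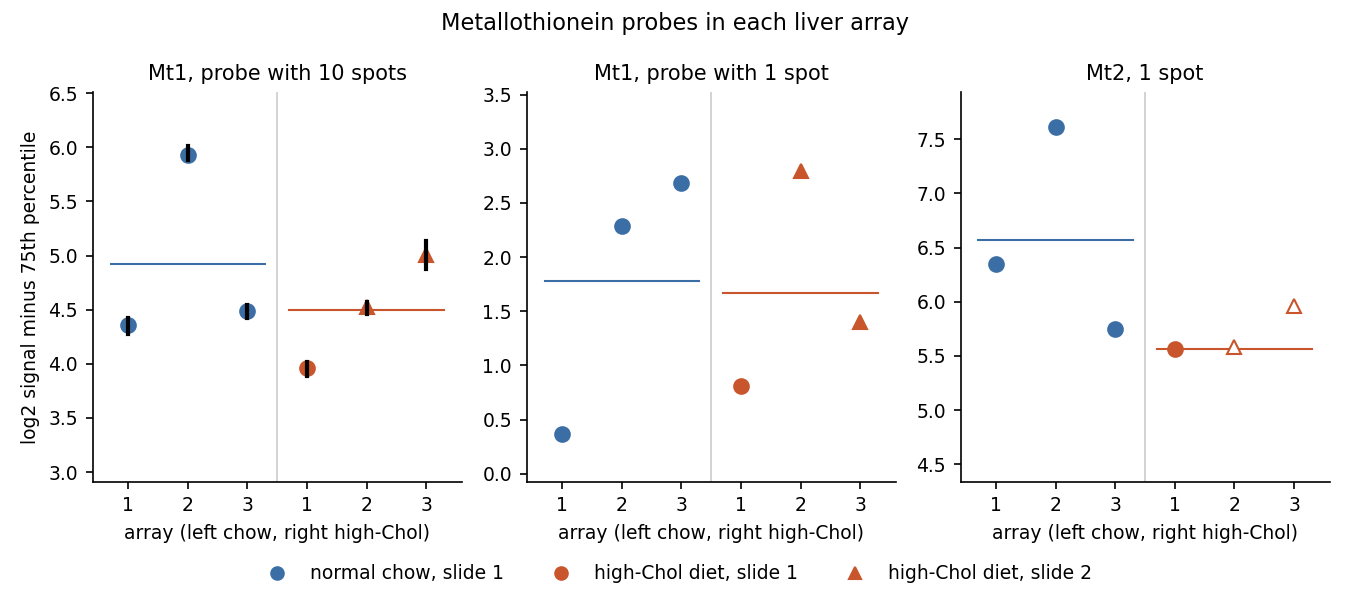
The y axis is the log2 signal minus the 75th percentile of the array and the x axis the 6 arrays, for both Mt1 probes and the Mt2 probe, with horizontal lines at the mean of each diet, black bars for the range of the 10 Mt1 spots and open triangles for Mt2 spots marked as non-uniform (not in the mean). The bars are short beside the distance between normal chow array 2 and the other normal chow arrays.

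The genes with the pattern nearest to Mt1 over the 6 arrays, by the root mean square distance of log2 values centred on each gene, were the transcripts AK040677 (0.223) and TC1467337 (0.224) and Tbc1d4 (0.229), a Rab GTPase-activating protein of insulin signaling, of 16428 candidates. All 3 were highest on normal chow array 2 and lowest on high-Chol array 1, as Mt1 was, which follows from how they were picked. For Nfe2l2 the nearest were the mitotic checkpoint gene Mad2l1 (0.0297), the monoamine transporter Slc29a4 (0.0317) and D4st1 (0.0502), a dermatan sulfotransferase. Each was highest on high-Chol array 2, as Nfe2l2 was, which follows from the choice in the same way.

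The rest of the NRF2 pathway was described from lists of genes. Among 11 partners and regulators of NRF2, 0 were called higher or lower, and 10 had a lower mean on the high-Chol diet, where 52.2% of all tested genes had one. The median difference of the 11 was -0.22. With slide as a block, 4 of the 11 differences were above 0 and the median was -0.14. The largest differences were -0.89 for Bach1, a repressor that competes with NRF2 for its sites (adjusted p = 0.109 in limma), -0.64 for Mafg, a small MAF partner of NRF2 (0.143), and -0.49 for Btrc, a ubiquitin ligase adaptor (0.394). In the fit with slide as a block they were -0.52, -0.44 and, with the direction turned, 0.28, and with a normexp background -0.56, -0.27 and -0.55. Bach1 gave -0.47, 0.12 and -0.22 with normal chow, against -0.71, -1.17 and -1.35 with the high-Chol diet. All 3 high-Chol arrays were below the normal chow arrays, and Mafg was without overlap in the same direction. In this list 3 of the 9 genes with 6 values were without overlap on the lower side and 0 on the higher. Of all genes with 6 values, 14% and 11.9% were.

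Among 19 other NRF2 target genes, 0 were called in either direction and 12 had a higher mean on the high-Chol diet, where 47.8% of all tested genes had one. The median difference of the 19 was 0.21 (-0.02 with median scaling). At an unadjusted p under 0.05, 6 were higher and 2 lower, beside 12.3% and 8.83% of all tested genes, and with slide as a block the median was 0.09. The largest difference was that of Gsta2, a glutathione S-transferase, which gave 3.20, 4.08 and 4.57 with normal chow, against 5.11, 5.85 and 5.45 with the high-Chol diet. Its diets did not overlap, and the difference of 1.52 had an adjusted p of 0.0906 in limma. Hmox1, which encodes heme oxygenase and is expressed in macrophages as well as hepatocytes, gave 2.74, 2.65 and 2.69 with normal chow, against 3.67, 3.797 and 3.01 with the high-Chol diet. It too was without overlap, with high-Chol array 3 nearest to normal chow (difference 0.80, adjusted p = 0.128 in limma). The difference of Abcc4, an efflux transporter, was 0.71 (adjusted p = 0.18 in limma) and its diets overlapped. It was 0.25 with slide as a block and 0.25 with a normexp background.

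Genes that carry out the reduction steps had median differences below 0 on this scale, which turned above 0 with a normexp background for each of the following 4 lists and, for glutathione genes, under a slide block (0.10) or quantile normalization (0.09) as well. For 11 genes of glutathione synthesis and recycling it was -0.07 (0.06 with a normexp background), with 0 called in either direction and the largest differences in Oplah (-0.67), Chac1 (-0.60) and Glrx (-0.38), which act in 5-oxoproline recycling, glutathione breakdown and deglutathionylation. These differences were -0.38, 0.36 and -0.17 with slide as a block, so that Chac1 turned, and -0.37, -0.52 and -0.081 with a normexp background. For 11 genes of the thioredoxin and peroxiredoxin system it was -0.16 (0.09 with a normexp background), with 0 called. Lower means were found for 10, where 52.2% of all tested genes had one. The largest differences were in Txnip, an inhibitor of thioredoxin (-0.71), Txn1 (0.47) and Prdx4 (-0.42). The corresponding values with slide as a block were -0.85, 0.04 and -0.087, and with a normexp background -0.43, 0.69 and -0.16. All 4 genes of superoxide and hydrogen peroxide removal had lower means, beside 52.2% of all tested genes, and 0 were called (median -0.20, or 0.05 with a normexp background). The differences of catalase (Cat, -0.22) and the superoxide dismutases Sod3 (-0.22) and Sod1 (-0.19) were without overlap on the lower side, where 14% of all genes with 6 values were, and with slide as a block they were -0.085, -0.13 and -0.28. A normexp background turned Cat (0.064) and Sod1 (0.045) and gave -0.71 for Sod3. Sod3 was well above background on 2 of the 3 normal chow arrays and passed the filter through the high-Chol arrays. Its value on normal chow array 1 (-3.79) lay below the lowest signal well above background there (-3.60). Its lack of overlap thus rests in part on a signal near background. Among 6 genes of NADPH supply, 0 were called (median -0.15, or 0.26 with a normexp background), and the largest difference was in G6pdx, the first enzyme of the pentose phosphate pathway, at 0.91 (adjusted p = 0.0934 in limma). It gave 0.49, -0.10 and -0.0024 with normal chow, against 0.85, 1.34 and 0.92 with the high-Chol diet, without overlap, and the other differences named by size were -0.45 for Me1 and 0.39 for Pgd (-0.29 and 0.55 with slide as a block, -0.14 and 0.54 with a normexp background).

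Metal handling was also without calls. Among 13 other metallothioneins and genes of zinc and copper handling the median difference was 0.12 (-0.12 with median scaling and -0.06 with slide as a block), with 0 called. The largest differences were those of the metal transporters Slc39a14 (-0.82, adjusted p = 0.0719 in limma, or -0.49 with a normexp background), Slc30a10 (0.79, or 1.64 with slide as a block) and Slc39a8 (0.43). Slc39a14 gave 2.06, 2.27 and 2.31 with normal chow, against 1.33, 1.18 and 1.69 with the high-Chol diet. All 3 high-Chol arrays were below the normal chow arrays.

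**Figure D4:**
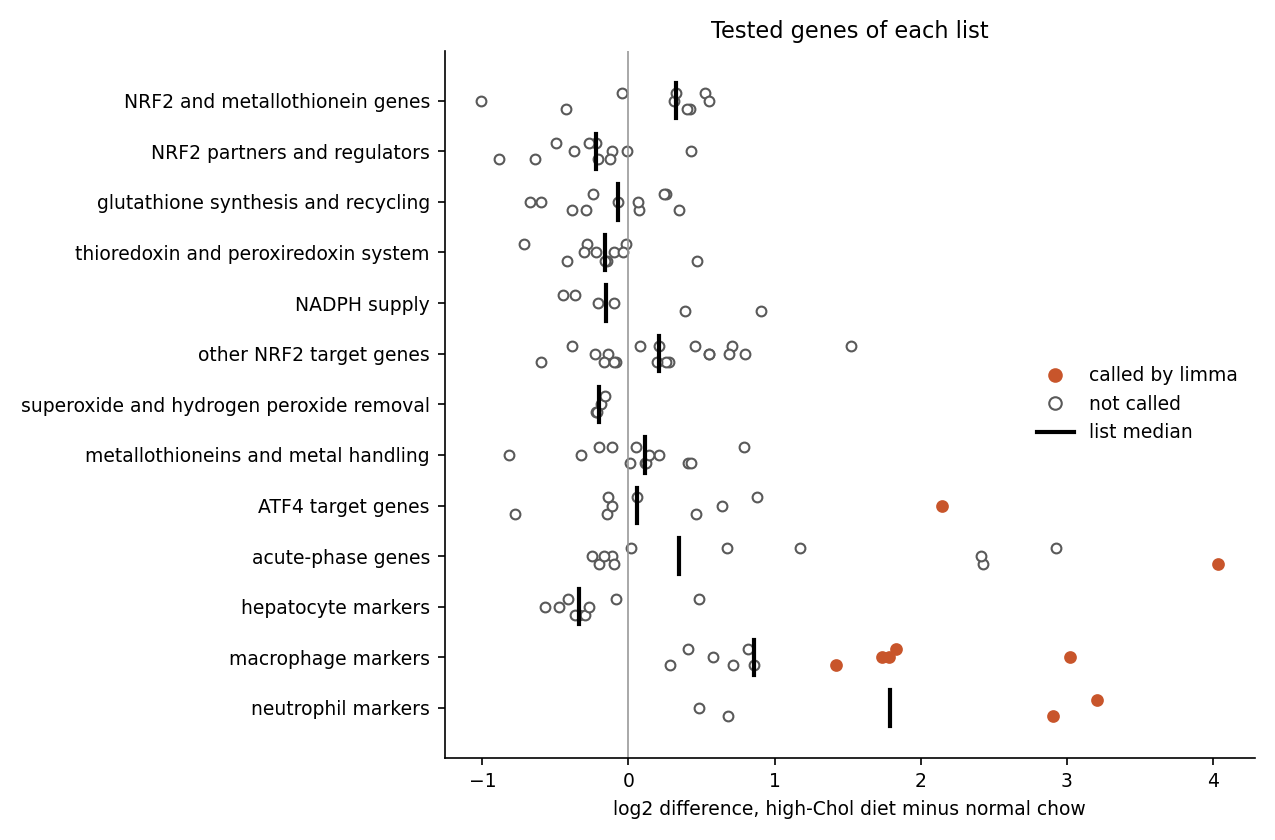
Each circle is 1 tested gene of the list named on the y axis, the x axis is its log2 difference (high-Chol diet minus normal chow), filled circles were called by limma (adjusted p under 0.05) and black bars are list medians. The redox and metal lists hold open circles alone, and among the lists drawn the filled circles lie in the ATF4, acute-phase, macrophage and neutrophil lists.

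Genes of other inputs to these promoters were compared beside them. In a list of 9 genes that held Atf4, a stress factor that also acts on Slc7a11, its target genes and Slc3a2, the partner of Slc7a11 in cystine transport, 1 was called higher. This was Atf3, by 2.15 (adjusted p = 0.0207 in limma, or 0.254 with slide as a block), or 0.75 with a normexp background, and the median was 0.06 (-0.06 with a normexp background and -0.18 with median scaling). Among 12 acute-phase genes 1 was called higher, Lcn2, by 4.03 (adjusted p = 0.0053 in limma, or 0.0831 with slide as a block), or 2.61 with a normexp background, and the median was 0.34 (0.11 with median scaling). At an unadjusted p under 0.05 in limma, 6 of the 12 were higher and 0 lower, beside 12.3% and 8.83% of all tested genes. The diets did not overlap for 6 on the higher side and 2 on the lower, beside 11.9% and 14% of all genes with 6 values. Among 7 glucocorticoid-induced genes 0 were called, and the largest differences had both signs, at -1.92 for Fkbp5, 1.596 for Cdkn1a and -0.97 for Per1 (-1.04, 0.18 and -0.63 with a normexp background).

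Some markers of other cell types were called higher on the high-Chol diet. With Atf3 and Lcn2 there were 11 such calls. All 11 were lost with slide as a block (adjusted p = 0.0768 to 0.447 in limma), where their differences were 0.97 to 3.67. Among 11 tested macrophage markers of 12 on the array, 5 were called higher, among them Ccr2 (3.02), Marco (1.83) and Lyz2 (1.78), with a median of 0.86. Ccr2 was well above background on 1 of the 3 normal chow arrays and passed the filter through the high-Chol diet, and with a normexp background its difference was 0.17. Their mean log2 level was 1.88 to 2.01 on the normal chow arrays and 3.03 to 3.25 on the high-Chol arrays. Of the neutrophil markers 4 of 8 on the array were tested, and S100a8 (3.21, or 1.07 with a normexp background) and S100a9 (2.90) were called higher. Their mean level was -1.66 to -1.39 on normal chow and -0.01 to 0.63 on the high-Chol diet. Single calls fell to Col1a1 among 8 stellate cell markers (1.04, or 0.54 with a normexp background) and Nkg7 among 7 lymphocyte markers (1.18, or 0.0048 with a normexp background), while 0 were called among 8 endothelial and 5 cholangiocyte markers. Of 9 hepatocyte markers on the array 0 were called (median -0.34, or -0.0099 with a normexp background and -0.58 with median scaling). Their mean level was 7.56 to 7.65 on normal chow and 7.25 to 7.42 on the high-Chol diet. The part of these cell markers in the values of Nfe2l2, Srxn1, Hmox1 and the other genes was not tested.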

How the data were processed

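Liver RNA was measured on 6 one-colour Agilent arrays, 3 per diet. The authors deposited scanner output with spot intensity values that Agilent Feature Extraction (9.5 for slide 1, 9.1 for slide 2) had background-subtracted but not normalized between arrays, and a second table that holds a single log2 value per diet for each probe, of which the normalization settings are not given in the sources used here. It was used only as an alternative.

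Each array was scaled by subtracting, on the log2 scale, its 75th percentile over 43379 non-control spots. These percentiles were 271.1 to 373.5 on slide 1 and 762.0 to 799.2 on slide 2, and 50.5% to 67.2% of spots were well above background. Control spots and outlier spots (75 to 196 per array) were left out, and spots of a probe were averaged. Probes well above background on every array of 1 diet or both were kept (15 of the 19 probes of the genes described), and the kept probe with the highest mean stood for its gene. Symbols were matched through RefSeq (GRCm38.p6), 173 of 176 list genes.

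For the diet comparison limma 3.58.1 was run in R 4.3.3 (lmFit, eBayes, no covariate) over 16728 genes, with Benjamini-Hochberg adjustment and a threshold of 0.05. Tested on simulated data drawn from this comparison, it called 30 of 110 genes changed by 2-fold and, of those changed by 4-fold, 73 of 90 (2 false calls). The simulated arrays held no difference between slides, so these counts do not cover errors that come from slide and diet being mixed. The number of arrays limits the precision. Motif counts, tables and plots were made in Python 3.11.15 (pandas 2.3.3, numpy 2.4.6, matplotlib 3.10.9).

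The genes described and the lists were chosen with earlier results of these data known. Named genes are the 10 genes described, in each list the called genes (the 3 largest where more than 3 were called in a direction) or otherwise up to 3 with the largest difference, and the 3 nearest patterns to Mt1 and Nfe2l2. For the hepatocyte, endothelial and cholangiocyte lists, counts are given without such names. No exon annotation of mm7 was used. Alternatives were other backgrounds, scalings, filters and variance priors, a block for slide, leaving out each array in turn, the methods' t-test and the authors' table, and, chosen after seeing the data, the marked Mt2 spots and the counts of genes without overlap or past 1.5-fold by setting.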

Additional observations from a re-analysis of the deposited data

How the results depend on the processing

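Of the genes described, 0 were called higher and 0 lower under each alternative that gave counts, except that 1 (Nfe2l2) was called higher without high-Chol array 1. Leaving out each array thus gave 0 to 1 higher. Mostly 9 genes were tested, but 8 without high-Chol array 1 or with the methods' t-test, and 10 without a filter on dim probes. The authors' table and the marked Mt2 spots gave no such counts. Among all tested genes, the 450 called higher became 0 with a normexp background, 26 without a filter on dim probes, 11 with slide as a block and 4 with the methods' t-test after adjustment, and 42 to 2314 with each array left out. The 38 called lower became 0 with a normexp background, 0 without the filter, 0 with slide as a block, 73 with median scaling, 89 with a trended and robust variance prior and 1 with the methods' t-test, and 0 to 761 with each array left out. The highest of these counts (2314 and 761) are those without high-Chol array 1, where diet and slide cannot be told apart. The number of the genes described whose diets did not overlap fell from 4 to 2 with a normexp background and 1 with median scaling.

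Keap1 reversed, to 0.22 with a normexp background, 0.065 with quantile normalization, 0.22 with slide as a block, 0.04 without normal chow array 3, 0.04 without high-Chol array 2 and 0.0075 without high-Chol array 3 (range with each array left out -0.17 to 0.04). Mt1 reversed to 0.074 without normal chow array 2 (range -0.71 to 0.074). The cause was not tested. Median scaling moved the median of all genes from -0.02 to -0.26 and a normexp background moved it to -0.11. From the deposited log2 table, with 1 value per diet and no test, the 9 genes kept the direction of their differences (Nfe2l2 0.28, Keap1 -0.29, Nqo1 0.16, Gclc 0.18, Gclm 0.072, Txnrd1 0.081, Srxn1 0.31, Mt1 -0.67, Mt2 -1.11). For each gene but Mt2 the deposited difference lay below the main one by nearly the same amount. It thus rests on the same signals under another scaling and is not a separate check. Mt2 has no value without high-Chol array 1. No paired analysis was possible because no numbers in the labels tie an array of 1 diet to an array of the other. In simulated data with 3 arrays per diet and no difference between slides, limma called 30 of 110 genes with a 2-fold change, and smaller folds were not simulated.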
